A study of Mus musculus with 42 samples.

Results

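The annexin genes Anxa1, Anxa2, Anxa3, Anxa4, Anxa5, Anxa6, Anxa7 and Anxa11 were followed through every bulk RNA-Seq library of mouse uterine tissue-resident NK cells (trNK) and through a single-cell matrix of uterine NK1.1+NKp46+ cells. They are 8 of the 54353 genes that the bulk count files shared. The members are a fixed list of annexins, and Anxa3 was chosen by its measured levels, since it had no reads in the earliest trNK subset, trNK-V, and many in the latest, trNK-T. Those values chose the gene, so Anxa3 is described without a test among the subsets, and the contrast of trNK-T with trNK-V is described without p-values for every gene.

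All animals were wild-type C57BL/6 adult females. The bulk data held 34 libraries in 17 groups of 2. In the gestation series, trNK were sorted as CD45+NK1.1+NKp46+CD49a+CXCR6- cells from virgin uteri and from uteri at gestational days (gd) 6.5 and 8.5. In the subset series, trNK of gd8.5 uteri were divided by their surface CD55 and 4-1BB into trNK-V (low for both), trNK-D (intermediate) and trNK-T (high). In the inhibitor culture, live NK1.1+ cells were taken after 3 days without further treatment (control), with IL-21 at 20 ng/mL, or with IL-21 and the STAT3 inhibitor Stattic. The study describes trNK-V cells of gd6.5 as the start of this culture and of the time course, and its methods give IL-15 in the medium of all cultures. In the time course, trNK isolated at gd6.5 were kept with IL-15, with or without IL-21 at 20 ng/mL, and were harvested at 0, 6, 24 and 72 h. The sources differ on the doses of IL-15 and of Stattic, so neither is printed. The single cells were sorted as CD45+NK1.1+NKp46+ from pooled uteri of virgin and gd8.5 mice and were mixed before capture. Their files carry no key to the mouse of origin, so they were treated as 1 sample.

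The count files summed to between 11862089 and 29537298 in the libraries of the gestation, subset and inhibitor series, and to between 28541369 and 66468883 in the time course. The time course was made with another library kit, so its levels are set against each other and not against those of the other series. The study describes its bulk data as representative of independent experiments, but the labels do not give the animals or cultures behind each library, so p-values measure the spread between these libraries, which may be in part technical. All 6 trNK marker genes, among them Itga1, Eomes and Ncr1, were above 1 RPKM in every library. Libraries of a group ranked genes alike, with Spearman correlations from 0.855 to 0.976, but some libraries stood apart from their companions. The 5 erythroid genes summed to 12.8 and 224 RPKM in the virgin libraries and to 0.251 and 844 in those of gd8.5. The summed level of 10 late-stage trNK genes, which include Gzmb and Spp1, was 16937 RPKM (reads per kilobase of exon, scaled to library depth) in virgin replicate 2 against 1121 in virgin replicate 1, and from 14011 to 20485 in the gd6.5 and gd8.5 libraries. In bulk samples, a change in the share of cells that express a gene and a change in its RNA per cell cannot be told apart.

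Annexins are cytosolic proteins that bind acidic phospholipids of membranes when calcium rises, through a conserved core of repeated helical domains. Their N-terminal tail differs between members and carries most of their partner-binding sites. Annexins act in membrane repair, vesicle fusion, exocytosis and the handling of dying cells. Uterine trNK cells fill the decidua in early pregnancy, carry cytolytic granules and take part in the remodelling of spiral arteries. Anxa1 is a glucocorticoid-induced anti-inflammatory protein that signals through formyl peptide receptors. Anxa2 forms a complex with S100a10 at the plasma membrane and binds plasminogen. Anxa5 binds phosphatidylserine exposed on dying cells, and Anxa6 is a longer member whose core is duplicated. Anxa7, also called synexin, promotes the fusion of secretory vesicles, and Anxa11 tethers RNA granules to lysosomes. Anxa3 is best known from neutrophils, where it is found with granules.

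In the GRCm38 annotation, Anxa3 lies on the plus strand at chr5:96793339-96845966. Anxa1 lies at chr19:20373428-20390944, Anxa2 at chr9:69453620-69491795, Anxa4 at chr6:86736840-86793584 and Anxa5 at chr3:36448923-36475894. Anxa6 lies at chr11:54979108-55033445, Anxa7 at chr14:20455260-20480133 and Anxa11 at chr14:25842156-25886804. Anxa2, Anxa3 and Anxa11 are on the plus strand and the others on the minus strand. Counts were summed over each gene's exons.

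Anxa3 was at 0 counts in both trNK-V libraries. It was at 1.53 and 1.05 RPKM in the trNK-D libraries, from 116 and 75 counts, and at 14.1 and 17.7 RPKM in the trNK-T libraries, from 773 and 765 counts. The trNK-T libraries were thus the highest of the 6 and overlapped neither other subset. Against the level that 3 counts in a trNK-V library would give (0.0560 RPKM), trNK-D was at least 23.0-fold higher and trNK-T at least 284-fold higher, and trNK-T stood 12.3-fold over trNK-D. The reads carry no molecular identifiers, so this floor covers counting error only. These are the values on which the gene was picked.

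Outside the subsets, Anxa3 was low and uneven. The virgin libraries held 0 and 1.54 RPKM, those of gd6.5 10.6 and 1.23, and those of gd8.5 2.04 and 4.20. The gd6.5 libraries overlapped both other groups, whereas those of gd8.5 were higher than the virgin ones with no overlap. The library at 1.54 RPKM was virgin replicate 2, the one with the high late-stage gene sum. The gd6.5 library at 10.6 RPKM also held more Scin (13.4 against 0.894 RPKM), an actin-severing protein, and more Epas1 (3.27 against 0.855), a hypoxia-inducible transcription factor. Both are among the 5 genes most like Anxa3 over the 34 libraries, this one included, so their rise here is no separate observation. The part of these differences in the Anxa3 values was not tested. Anxa3 did not reach the expression filter in the gestation series, which asked for more than 10 RPKM in both libraries of a group.

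In culture, Anxa3 was nearly absent. It was at 0 counts in 5 of the 6 inhibitor-culture libraries and in 13 of the 16 time-course libraries, including every library at 24 and 72 h. The highest values were 0.529 RPKM (26 counts) in an IL-21 library of the inhibitor culture and 0.578 RPKM (140 counts) in a control library at 6 h. A count of 3 would have given from 0.0279 to 0.0676 RPKM in the inhibitor culture and from 0.0124 to 0.0289 RPKM in the time course. The gene passed the filter in neither culture.

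**Figure D1:**
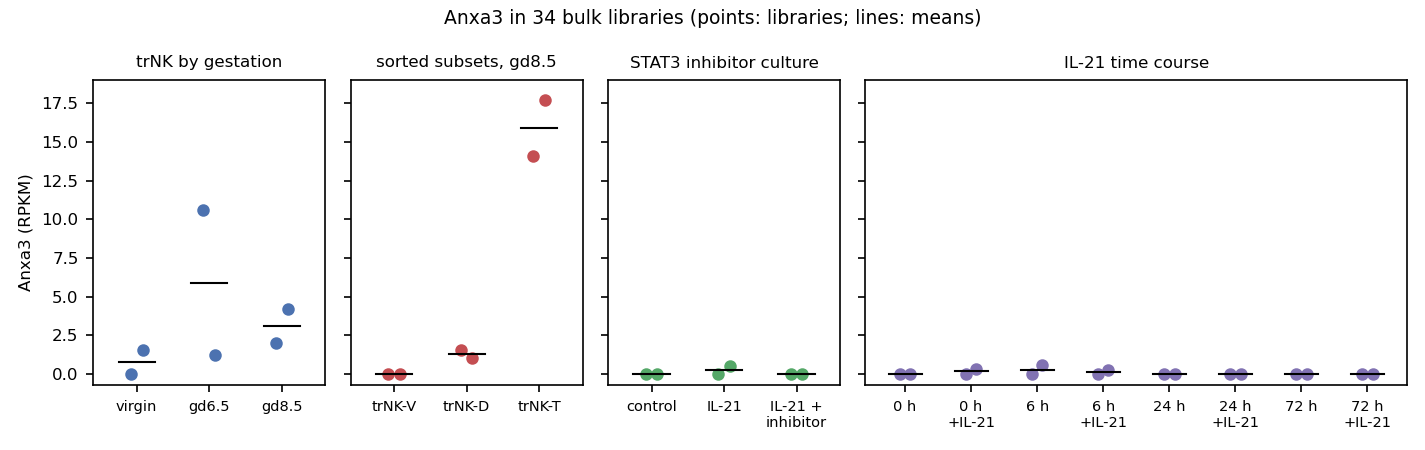
Anxa3 level (RPKM, linear axis) in each of the 34 bulk libraries, in 1 panel per series; points are libraries and lines are group means. The trNK-T libraries sit at 14.1 and 17.7, 1 gd6.5 library is at 10.6, and most culture libraries lie at 0.

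Because Anxa3 is also made by myeloid cells, markers of other cell types were summed in the same libraries. The sum of 7 macrophage genes ran from 37.0 to 116 RPKM in trNK-V, from 65.1 to 87.7 in trNK-D and from 12.4 to 18.1 in trNK-T, so it was lowest where Anxa3 was highest. The 6 neutrophil genes summed to at most 1.33 RPKM in any subset library. The 6 stromal genes summed to between 4.60 and 51.9 RPKM in trNK-V and to at most 0.688 in trNK-T. In contrast, 6 cell-division genes summed to between 169 and 259 RPKM in trNK-T against 70.7 to 98.7 in trNK-V, with trNK-D spread from 42.3 to 255, and 5 mast cell genes to between 8.79 and 10.7 against 2.24 to 7.53 in trNK-D and 1.98 to 2.06 in trNK-V. The mast cell sum followed Anxa3 through all 3 subsets without overlap, as did those of the 10 late-stage trNK genes (3234 to 3364, 11911 to 13851 and 21459 to 29483 RPKM), 4 epithelial genes (6.54 to 11.1, 18.9 to 24.6 and 53.3 to 58.0 RPKM) and 4 endothelial genes (from 19.6 RPKM in trNK-V, from 26.3 in trNK-D and from 47.2 to 49.9 in trNK-T). At most 2 of the epithelial and 2 of the endothelial genes were above 1 RPKM in a library. Their part in the Anxa3 difference was not tested.

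Of the 16 genes within 250 kb of Anxa3, 11 had reads in a subset library, all below 10 RPKM. Gm33370, a predicted gene on the opposite strand, was at 0 in both trNK-V libraries, at 0 and 3.33 RPKM in trNK-D and at 3.39 and 8.28 RPKM in trNK-T, and was picked after its values were seen. Bmp2k, a kinase gene downstream of Anxa3, went from 2.18 and 1.63 RPKM in trNK-V to 1.60 and 1.21 in trNK-T, and Fras1, upstream, was at most 0.0282 RPKM in any subset library. Apart from Gm33370, no neighbour had mean levels in the order of those of Anxa3.

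Likeness to Anxa3 was measured as the Pearson correlation of log2(RPKM + 1) across the 34 libraries, after each series was centred on its own mean, among 5677 genes. Among the 5 most alike were Epas1 (0.931), the predicted gene Gm33142 (0.890), the unconventional myosin Myo10 (0.890) and Scin (0.795). Epas1 was at 0.0366 and 0.295 RPKM in trNK-V, 0.526 and 0.660 in trNK-D and 10.3 and 11.6 in trNK-T, and Scin put the subsets in the same order, at 2.23 and 4.51, 18.0 and 11.3, and 62.2 and 85.8 RPKM. Least alike were Cd2 (-0.868), the transcription factor gene Tcf7 (-0.833), the NK receptor genes Klrc2 (-0.831) and Klrc1 (-0.824), and Gm45778 (-0.813). Cd2, an adhesion receptor of T and NK cells, was at 380 and 456 RPKM in trNK-V and at no more than 34.8 in trNK-T. These correlations are a description, since the points share their depth and the subset libraries spread them most: for Epas1 the value was 0.982 over the 6 subset libraries, 0.875 over the 6 gestation libraries and -0.119 over the 16 time-course libraries. Among the annexins, Anxa7 came nearest to Anxa3 at 0.438, place 237 of the genes, and Anxa1 farthest at -0.348, place 4912.

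The other annexins covered a wide range of levels in the freshly sorted subsets. In trNK-V, by RPKM, Anxa2 was the highest (571 and 500), then Anxa6 (265 and 238), Anxa1 (190 and 159), Anxa5 (111 and 93.1), Anxa4 (17.2 and 16.3), Anxa7 (11.4 and 12.6) and Anxa11 (2.1 and 0.689). Each of these neighbours in the order was apart from the next in both libraries. In trNK-T the order of the middle genes was no longer resolved, with Anxa5 at 196 and 240 RPKM, Anxa6 at 165 and 203, and Anxa1 at 190 and 109. Anxa3, at 14.1 and 17.7, had come to lie just under Anxa4 (20.6 and 21.4).

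**Figure D2:**
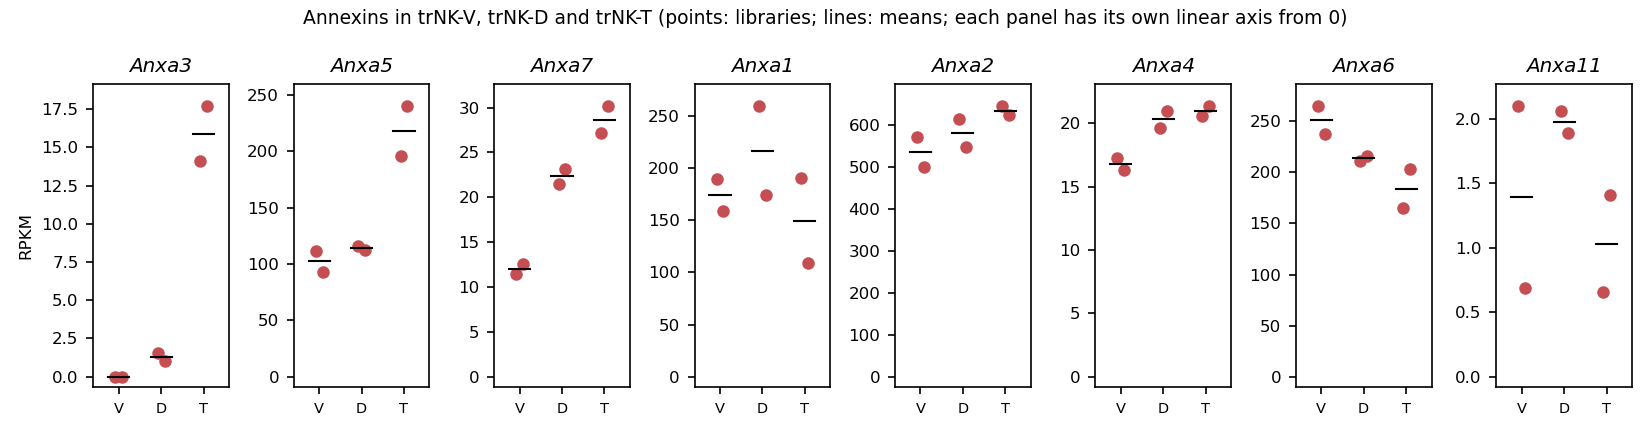
RPKM of the annexins in trNK-V, trNK-D and trNK-T, each panel on its own linear axis from 0, with points for libraries and lines for means. For Anxa2, Anxa3, Anxa5 and Anxa7 both trNK-T libraries lie above all others, for Anxa2 by little (624 against 614 RPKM). Anxa3 was picked on these values. The share of all genes with this order was not counted, so nothing is read from it. The highest Anxa4 library is also of trNK-T, while Anxa6 is highest in trNK-V.

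Of the other 7 annexins, 6 passed the expression filter in the subset series, and Anxa11 did not. Genes were called with edgeR's quasi-likelihood test at a Benjamini-Hochberg adjusted p below 0.05 over all genes tested and a fold change above 2. In trNK-T against trNK-V, 21.2% of all 4683 genes were called. Since this contrast chose Anxa3, its calls are not given for the annexins. Anxa5 was at 111 and 93.1 RPKM in trNK-V, 116 and 113 in trNK-D and 196 and 240 in trNK-T, a log2 difference of 1.10 (SE 0.17) between trNK-T and trNK-V. Both trNK-T libraries lay above every other subset library, whereas trNK-V and trNK-D were close together. Without trNK-T replicate 2 the difference was 0.94 and fell under the fold threshold.

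Anxa7 was at 11.4 and 12.6 RPKM in trNK-V, 21.5 and 23.2 in trNK-D and 27.1 and 30.2 in trNK-T, and the 3 groups did not overlap. The log2 difference was 1.26 (SE 0.16) for trNK-T against trNK-V. Anxa6 went the other way, from 265 and 238 RPKM through 211 and 216 to 165 and 203, a log2 difference of -0.45 for trNK-T against trNK-V. Anxa1 did not order the subsets, with 190 and 159 RPKM in trNK-V, 260 and 174 in trNK-D and 190 and 109 in trNK-T.

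The other contrasts of the subsets did not serve to choose the list. In trNK-D against trNK-V none of the 6 tested annexins was called by edgeR (0.32% of all genes were), DESeq2 (237 of 4683 genes) or limma with voom (32 genes). An unadjusted p below 0.05 was reached by 939 of all genes, among them 1 annexin. That annexin was Anxa7, with a log2 difference of 0.90 (SE 0.16, edgeR adjusted p = 0.0911). In trNK-T against trNK-D, 0 of 6 were called by each of the 3 tools (1.75% of all genes by edgeR, 386 of 4683 by DESeq2 and 61 by voom). An unadjusted p below 0.05 was reached by 1072 of all genes, among them 1 annexin. That was Anxa5, at 0.92 (SE 0.17, edgeR adjusted p = 0.056). For Anxa7 the same contrast gave 0.35 (edgeR adjusted p = 0.240). Anxa2 (645 and 624 RPKM in trNK-T against 614 and 549 in trNK-D) and Anxa4 (20.6 and 21.4 against 19.6 and 21) differed little between these subsets.

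During gestation Anxa1 was the 1 annexin called in the main fit. For gd6.5 against virgin, 3 of 6 had an unadjusted p below 0.05 in edgeR (Anxa1, Anxa2 and Anxa7), as did 1474 of the 4504 genes. The virgin libraries held 191 and 208 RPKM of Anxa1, the gd6.5 libraries 78.9 and 78.7, and the gd8.5 libraries 127 and 129. The 3 groups did not overlap, and the libraries within each were close, including the virgin library with the high late-stage gene sum. Anxa1 fell by 1.43 on the log2 scale at gd6.5 (SE 0.14, edgeR adjusted p = 0.0228), the only call among 6 tested annexins, where 6.17% of all genes were called. The call held without either virgin library. It was lost without any one of the gd6.5 and gd8.5 libraries, with the log2 difference between -1.45 and -1.42. In each of these fits a group had a lone library, taken to vary like the others. The common coefficient of variation, a spread between libraries estimated over all genes, was 0.254 in the main fit. It was 0.175 and 0.178 without a virgin library, and from 0.291 to 0.302 in the fits that lost the call. The part of this spread in the lost call was not tested, and nothing is read from the loss. With a replicate block the call was lost as well (edgeR adjusted p = 0.0629). The 7 macrophage genes had the same order as Anxa1, summing to between 26.0 and 26.5 RPKM in virgin libraries, to 10.5 or 13.1 at gd6.5, and to 18.3 or 24.5 in those from gd8.5, with at most 4 of 7 above 1 RPKM and Csf1r at or near 0. Without overlap and in the same order were the sums of the 6 trNK markers (2322 to 4878, 1349 to 1564 and 1872 to 2104 RPKM), of 7 ILC1 genes (983 to 1019, 501 to 549 and 685 to 735), of 5 monocyte genes (474 to 720.4, 297 to 340.1 and 418 to 421) and of 5 gamma delta T cell genes (371 to 568, 224 to 243 and 343 to 370.2). The 5 interferon response genes summed to at most 56.7 RPKM in virgin libraries, to 2.68 or 2.73 in those of gd6.5, and to 17.5 or 36.3 in those of gd8.5, which overlapped the virgin ones. The 6 cell-division genes had the reverse order (83.0 to 125, 192 to 283 and 129 to 156 RPKM). The share of counts on mitochondrial genes followed Anxa1 without overlap (1.63% and 1.43%, 0.955% and 1.10%, and 1.25% and 1.34%). Genes with at least 1 count had the reverse order (14879 and 16371, 17360 and 17070, and 16515 and 16836). The part of these differences in the Anxa1 result was not tested.

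At gd8.5, Anxa1 stood between the other stages. Its log2 difference was -0.71 against virgin (edgeR adjusted p = 0.129) and 0.72 against gd6.5 (edgeR adjusted p = 0.0947). For gd8.5 against virgin, 0 of 6 annexins were called by edgeR, DESeq2 or voom (0.422% of all 4504 genes by edgeR, 192 genes by DESeq2 and 25 by voom). An unadjusted p below 0.05 was reached by 638 of all genes, among them 1 annexin. For gd8.5 against gd6.5, 0 of 6 were called by each tool and 2 had an unadjusted p below 0.05. In that contrast edgeR called 0% of the 4504 genes, 1071 of which had an unadjusted p below 0.05, while DESeq2 called 258 and voom 0.

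Anxa7 was higher in both gd6.5 libraries (28.4 and 24.2 RPKM) than in the virgin (14.3 and 18.0) or gd8.5 (18.1 and 17.4) libraries, but the log2 difference of 0.62 between gd6.5 and virgin was not called (edgeR adjusted p = 0.084). Anxa2, with 541 and 702 RPKM in the virgin libraries, 499.9 and 398 in those of gd6.5 and 494 and 509 in those of gd8.5, stayed the most abundant member throughout. Anxa5 held 101 and 134, 109 and 81.6, and 113 and 111 RPKM in the same order, so its groups overlapped. Anxa6 was at 243 and 182, 232 and 212, and 152 and 174 RPKM, with the gd8.5 libraries the lowest. Anxa4 was at 11.6 and 18.0, 14.7 and 12.7, and 18.7 and 19.7 RPKM, with both gd8.5 libraries above the others and no call in any contrast. Anxa11, which was not tested, was at 1.25 and 0.838, 1.97 and 2.20, and 0.848 and 0.781 RPKM, with both gd6.5 libraries above the others.

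The partners through which annexins act were taken from a list of 28 genes, of which 12 passed the filter in the gestation and subset series. Of these 12, 2 were called from virgin to gd6.5, both lower, where 6.17% of all genes were called. Pdcd6ip, which binds Pdcd6 and acts in membrane repair, passed the adjusted p but not the fold threshold, 0.74 higher on the log2 scale (edgeR adjusted p = 0.0311), as did S100a6 and Sri, with log2 differences of -0.89 and -0.83. S100a10, the light chain that binds Anxa2, held 862 and 928 RPKM in the virgin libraries, 314 and 409 in those of gd6.5 and 643 and 619 in those of gd8.5, and fell by 1.39 on the log2 scale at gd6.5 (SE 0.18, edgeR adjusted p = 0.0280). S100a11, a partner of Anxa1, was at 1637 and 2077, 910.2 and 1051, and 1811 and 1819 RPKM, and fell by 1.01 (SE 0.18, edgeR adjusted p = 0.0311). Like Anxa1, both were lowest at gd6.5 with no overlap between gd6.5 and either other group. The library differences set beside Anxa1 hold here too, and their part was not tested. The S100a10 call was kept without either virgin library and lost without any one of the gd6.5 and gd8.5 libraries, with adjusted p up to 0.213. That of S100a11 was kept without virgin replicate 1 only, with adjusted p up to 0.263. It was also lost with voom, just short of the fold threshold, without the filter on low values (-0.96) and with a replicate block (edgeR adjusted p = 0.0699), which likewise ended the S100a10 call (0.0629).

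For the partners, the contrast of trNK-T with trNK-V is again a description. The 3 of 12 shown were picked because they passed the thresholds there, as did 21.2% of all genes, so their differences are no test. Calr, a chaperone of the endoplasmic reticulum, was at 133 and 143 RPKM in trNK-V and at 332 and 616 in trNK-T. Ahnak, a giant scaffold protein that binds the Anxa2 complex, was at 22.2 and 23.2 RPKM in trNK-V and at 9.48 and 5.21 in trNK-T. Plgrkt, a plasminogen receptor, was at 46.1 and 52.4 RPKM in trNK-V and at 21 in both trNK-T libraries. As single libraries were left out, the log2 difference ran from 1.26 to 2.15 for Calr. It ran from -2.13 to -1.26 for Ahnak and from -1.25 to -1.06 for Plgrkt. In trNK-D against trNK-V and in trNK-T against trNK-D, 0 of the 12 partners were called by edgeR.

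In the inhibitor culture no annexin was called by edgeR in any of the 3 contrasts, with 6 tested. For IL-21 against control, 0 of 6 were called (0.289% of all 4158 genes). An unadjusted p below 0.05 was reached by 382 of all genes, among them 1 annexin. That was Anxa2, at 406 and 352 RPKM in control, 555 and 591 with IL-21 and 366 and 368 with IL-21 and inhibitor, whose log2 difference with IL-21 was 0.78 (SE 0.27, edgeR adjusted p = 0.369). Both IL-21 libraries lay above the other 4. For IL-21 with inhibitor against IL-21 alone, 0 of 6 were called (2.96% of all genes). An unadjusted p below 0.05 was reached by 3, namely Anxa4, Anxa5 and Anxa7, and by 824 of all 4158 genes. DESeq2 and voom called 0 annexins in both contrasts. Of all genes they called 228 and 18 for IL-21 against control, and 608 and 123 for inhibitor against IL-21 alone.

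For IL-21 with inhibitor against control, 0 of 6 were called by edgeR or voom (4.74% of all genes by edgeR, 270 of 4158 by voom). An unadjusted p below 0.05 was reached by 936 of all genes, among them 1 annexin. DESeq2 called 1 annexin, where it called 17.9% of all genes. The gene was Anxa7, at 25.4 and 32.0 RPKM in control, 22.7 and 41.2 with IL-21 and 64.8 and 43.6 with inhibitor, a log2 difference of 1.20 (SE 0.38, edgeR adjusted p = 0.117, DESeq2 adjusted p = 0.00507). Both inhibitor libraries lay above the others. Control and inhibitor libraries also differed in the sums of the 6 cell-division genes (108 to 160.1 against 43.2 to 66.8 RPKM), the 6 trNK markers (1394 to 2414 against 409 to 692), the 7 ILC1 genes (407 to 535 against 54.4 to 119.6) the 8 cNK genes (3310.2 to 3738 against 2036 to 2455), the monocyte genes (441 to 481 against 249.8 to 258), the gamma delta T cell genes (701 to 710.1 against 157 to 255), the interferon response genes (at least 5.83 against at most 3.65) and the late-stage trNK genes (3590 to 5179 against 14747 to 16550). The share of counts on mitochondrial genes was also higher in control (1.89% and 1.35%) than with inhibitor (0.861% and 1.15%). The part of these differences in the Anxa7 values was not tested. Anxa5 was at 125 and 128 RPKM in control, 88.0 and 95.4 with IL-21 and 171 and 118 with inhibitor, so its IL-21 libraries were the lowest. Anxa1 was at 283 and 257 RPKM in control, 200 and 152 with IL-21 and 122 and 249 with inhibitor, and Anxa6 at 147 and 222, 75.6 and 141, and 89.0 and 83.8. For both genes the control libraries lay above the other 4, while no contrast was called (edgeR adjusted p from 0.243 to 0.865). Anxa4 ranged from 14.3 to 32.3 RPKM and Anxa11 from 0.556 to 5.05. Of the 13 partners tested in this culture, 0 were called by edgeR in any contrast.

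The time course set cultures with IL-21 against cultures without it at each harvest. Anxa1 was at 344 and 419 RPKM in the control libraries at 0 h and at 331 and 312 in those with IL-21. At 6 h it was at 400 and 417 without and at 229 and 246 with IL-21, the lowest Anxa1 levels of the time course. The log2 difference at 6 h was -0.82 (SE 0.17, edgeR adjusted p = 0.0335), which passes the adjusted p but not the fold threshold. At that adjusted p and any fold change, 1.54% of all genes were lower. The adjusted p ranged from 0.0223 to 0.285 as single libraries were left out, and rose above 0.05 without any one of the 6 h or 24 h libraries. At 6 h the 6 trNK marker genes also summed to less with IL-21 (3000.4 to 3566 RPKM) than without (6854 to 7909), as did the macrophage genes (at most 18.6 against at least 24.4, with 1 of 7 above 1 RPKM), the monocyte genes (244 to 257 against 331 to 407), the ILC1 genes (492 to 538 against 916 to 1008) the gamma delta T cell genes (244 to 266 against 447 to 479), the cNK genes (2338 to 2577 against 3516 to 3675), the T cell genes (at most 71.0 against at least 84.0) and the interferon response genes (at most 1.30 against at least 2.14), and the late-stage genes to more (29009 to 35383 against 9916 to 11117). Also lower with IL-21 at 6 h were the endothelial genes (at most 4.47 against at least 6.08 RPKM, with 1 of 4 above 1 RPKM). So were 7 early-stage trNK genes, among them Tcf7 and Tox (at most 34.8 against at least 35.1 RPKM). The share of counts on mitochondrial genes was at most 2.54% with IL-21 against at least 3.57% without. The part of these library differences in the Anxa1 values at 6 h was not tested.

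At 24 h Anxa1 was at 543 and 474 RPKM without and 369 and 355 with IL-21 (log2 difference -0.59, edgeR adjusted p = 0.127), again with no overlap. At 72 h it was at 377 and 300 against 333 and 294 (log2 difference -0.17), and the groups overlapped. The change of the IL-21 effect from 6 h to 72 h was itself 0.65 on the log2 scale and did not pass the test (edgeR adjusted p = 0.163).

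Anxa7 was the annexin called at 72 h. Its levels were 6.56 and 6.60 RPKM in control and 5.67 and 12.6 with IL-21 at 0 h, 9.87 and 10.9 against 14.3 and 12.9 at 6 h, and 6.23 and 10.7 against 8.55 and 5.95 at 24 h. At 72 h it was at 2.09 and 2.68 RPKM in control and at 9.46 and 7.78 with IL-21. The 72 h control libraries were the lowest of all 16, whereas the IL-21 libraries lay within the range of earlier times. The log2 difference at 72 h was 1.76 (SE 0.41, edgeR adjusted p = 0.0223), the 1 call among 5 tested annexins, where 8.08% of all genes were called. It ran from 1.58 to 2.13 with adjusted p from 0.0156 to 0.0433 as each of the 16 libraries was left out, and was called by DESeq2 and voom.

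In the control cultures themselves, Anxa7 fell by 1.46 on the log2 scale from 24 to 72 h (SE 0.40, edgeR adjusted p = 0.0308), again 1 of 5 where 14.8% of all genes were called. This call was lost without 24 h control replicate 2 (-1.02, edgeR adjusted p = 0.232) or 6 h IL-21 replicate 1 (0.0515), and without the filter on low values (0.0540), where Anxa2 was called in its place. Without 72 h control replicate 1, 4 of 5 annexins were called lower, namely Anxa2, Anxa5, Anxa6 and Anxa7, where that fit called 33.5% of all genes and 22.7% lower. Without either 72 h IL-21 library Anxa2 joined Anxa7, where 17.3% and 17.2% of all genes were called. The 72 h control libraries had 10724 and 11665 genes with at least 1 count, and 8.44% and 11.8% of their counts on mitochondrial genes. The 72 h IL-21 libraries had 13996 and 12000 genes and 4.37% and 5.73%, and the 24 h control libraries 13340 and 14229 genes and 4.76% and 4.58%. The summed level of the 6 cell-division genes was 0.533 and 7.87 RPKM in the 72 h control libraries and between 31.7 and 75.1 in those with IL-21. The late-stage trNK genes summed to between 1850 and 3748 RPKM in the 72 h control and between 7943 and 10075 in the 72 h IL-21 libraries, and the macrophage genes to at most 9.19 against 27.8 to 67.9, with at most 1 of 7 above 1 RPKM. The T cell genes (31.2 to 116 against 170.2 to 183) and mast cell genes (3.99 to 5.29 against 9.43 to 11.9) were likewise higher with IL-21, and the trNK markers lower (7947 to 11307 against 5512 to 7011). The part of these differences in the Anxa7 result was not tested.

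The IL-21 effect on Anxa7 differed from 6 to 72 h by 1.40 on the log2 scale, which did not pass the test (edgeR adjusted p = 0.200). A difference between these times was thus not established for this gene. In the inhibitor culture, IL-21 against control after 3 days gave 0.33 for Anxa7 (SE 0.37, edgeR adjusted p = 0.890), which was not called. The call at 72 h of the time course was thus not repeated there.

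The remaining contrasts of the time course called 0 of the 5 tested annexins with edgeR, DESeq2 and voom alike. At 0 h no annexin had an unadjusted p below 0.05, and edgeR called 0% of all genes (110 at an unadjusted p below 0.05, 1 by DESeq2 and 0 by voom). At 6 h and at 24 h, 1 annexin each, Anxa1, had an unadjusted p below 0.05, as did 429 and 527 of all 3503 genes. At these times edgeR called 1.97% and 1.66% of all genes, DESeq2 145 and 173 genes, and voom 85 and 57. From 0 to 6 h in control cultures edgeR called 0% of all genes (106 at an unadjusted p below 0.05, 9 by DESeq2, 0 by voom) and no annexin had an unadjusted p below 0.05. From 6 to 24 h edgeR called 0.0856% (DESeq2 17 genes, voom 3), and Anxa1 had an unadjusted p below 0.05, as did 197 of all genes.

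For the difference of the IL-21 effect between 24 and 6 h, edgeR called 0% of all genes (69 at an unadjusted p below 0.05, 4 by DESeq2, 0 by voom), with no annexin at an unadjusted p below 0.05. Between 72 and 6 h edgeR called 4.17% (DESeq2 395 genes, voom 198), with Anxa1 and Anxa7 among 647 genes at an unadjusted p below 0.05. Anxa2 ran from 46.9 to 293 RPKM over the 16 libraries, Anxa5 from 14.1 to 98.9 and Anxa6 from 1.52 to 23.2, with wide spread between libraries of a group. Anxa4 (1.70 to 15.6 RPKM) and Anxa11 (0 to 0.111 RPKM) did not pass the filter.

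Among the 10 partners tested in the time course, 2 were called with IL-21 at 6 h, both lower, where 1.97% of all genes were called. S100a10 was at 2036 and 2589 RPKM without and 955 and 938 with IL-21, and fell by 1.33 on the log2 scale (SE 0.29, edgeR adjusted p = 0.0395). S100a6, a calcium-binding protein that binds several annexins, was at 1232 and 1449 against 663 and 713 RPKM, and fell by 1.00 (SE 0.22, edgeR adjusted p = 0.0399). Groups did not overlap for either gene. The S100a10 call was kept without any one of the 0 h IL-21, 72 h control and 72 h IL-21 libraries, 6 of 16, and lost without any other, with adjusted p up to 0.341. That of S100a6 was kept without 0 h IL-21 replicate 2 only and in 1 of 5 other settings. Its log2 difference was just short of the fold threshold by DESeq2 and voom (-0.99 by each). A replicate block ended both calls (edgeR adjusted p = 0.0604 for S100a6 and 0.0615 for S100a10). The library differences set beside Anxa1 at 6 h hold here too, and their part was not tested.

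At 72 h neither gene was called. S100a10 was at 3545 and 3104 RPKM without and 2699 and 3743 with IL-21, so its groups overlapped. S100a6 was at 1261 and 876 without and 1271 and 1395 with IL-21, both IL-21 libraries lying above the controls (log2 difference 0.29, edgeR adjusted p = 0.446). The IL-21 effect on S100a6 differed between 72 and 6 h by 1.29 on the log2 scale (SE 0.31, edgeR adjusted p = 0.0391), where the median of all genes was 0.14. That call was lost without any one of 12 of the 16 libraries (edgeR adjusted p up to 0.160) and with a replicate block (0.0560). For S100a10 that difference was 1.27 (edgeR adjusted p = 0.108).

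The promoter windows of the members were read for the letters of STAT, hypoxia response and GC box motifs, IL-21 being a cytokine that signals through STAT3 and Epas1 a factor that binds hypoxia response elements. RefSeq windows of 250 bases before to 50 after a start site were found for 6 of the 8 members, in 8 windows, and no entry was found for Anxa3 and Anxa6. The STAT half-site pair TTCNNNGAA, which reads the same on both strands, was in 0 of 8 windows and in 8.30% of all 32851 windows. The hypoxia response core ACGTG, on either strand, was in 3 of 8, those of Anxa2, Anxa5 and Anxa7, and in 19.6% of all. The GC box core GGGCGG, on either strand, was in 5 of 8, of Anxa2, Anxa4, Anxa7 and Anxa11, and in 35.7% of all. A match is only a match of letters, and an absence concerns these windows alone.

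A stretch upstream of Anxa7 is shown because Anxa7 was the member with an IL-21 difference past both thresholds, at 72 h of the time course. In the inhibitor culture its IL-21 difference was not called (log2 difference 0.33, edgeR adjusted p = 0.890). RefSeq gives 2 windows for the gene. The one at chr14:20479892-20480191 holds both ACGTG matches and 4 GC box cores, and the other, chr14:20480084-20480383, holds 1 GC box core and no ACGTG. The stretch printed lies in the latter, whose start matches the gene position given above, and covers the 250 bases before this start on the minus strand of GRCm38.p6, chr14:20480134-20480383, overlaps no annotated exon and has 42.4% G and C. The capitals mark its single GC box core, which reads as CCGCCC on this strand.
Anxa7 upstream: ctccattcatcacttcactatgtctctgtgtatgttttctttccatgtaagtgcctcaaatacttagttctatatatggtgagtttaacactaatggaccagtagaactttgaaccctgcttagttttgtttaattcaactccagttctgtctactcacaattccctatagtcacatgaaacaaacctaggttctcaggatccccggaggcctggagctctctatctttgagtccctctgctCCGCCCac

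In the single-cell matrix, 15175 cells were spread over files that hold different genes of the same cells. Cells with 200 to 2500 detected genes and under 10% mitochondrial UMIs (molecule counts) were kept, 8907 of them, and fell into 16 clusters when the annexins were left out of the clustering. Levels are CPM, the UMIs of a gene scaled to all UMIs of a cluster, with exact Poisson 95% intervals for counting error only, and with 1 pooled sample there is no test. Doublets were not removed. The sorting gate notwithstanding, clusters with macrophage-like (1231 cells), B-like (300), T-like (258) and stromal-like (213) genes were present. Among the clusters left without a cell type name were those led by Cox6a2 and Xcl1, by Gzmc and Gzmf, and by Mt2 and Ctsg.

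Anxa3 differed widely between these 3 clusters. In the cluster led by Cox6a2 and Xcl1 (1224 cells, with raised Il21r, Tcf7, Tox and Cd27) it was at 3.69 CPM (interval 2.02 to 6.19). In the cluster led by Gzmc and Gzmf (1257 cells), granzyme genes, it was at 46.3 CPM (41.0 to 52.1). In the cluster led by Mt2 and Ctsg, which also had Scin and Epas1 among its leading 10 genes (573 cells), it was at 180 CPM (166 to 196), the highest of the 16. Median depths of the 3 clusters were 2815, 5059 and 5660 UMIs per cell. The B-like and T-like clusters gave 14.5 CPM (6.64 to 27.6) and 3.68 CPM (0.446 to 13.3), from 9 and 2 UMIs. The level in the Cox6a2 and Xcl1 cluster was below that of the B-like and within the interval of the T-like cluster. How much of these low levels is background was not tested.

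Myeloid cells also held Anxa3, at 71.7 CPM (63.1 to 81.2) in the macrophage-like cluster, 71.2 (55.2 to 90.5) in the cluster led by S100a8 and S100a9, and 99.8 (72.2 to 134) in a cluster of 129 cells led by Ccl22. All 3 lay below the cluster with Scin and Epas1. Measured macrophage genes summed to 92.1 CPM in that cluster against 19737 in the macrophage-like one, and its neutrophil genes to 2.23 CPM. Its 4 measured monocyte genes summed to 2664 CPM, with Plac8 raised more than 2-fold, against 1740 in the macrophage-like and 11526 in the S100a8 and S100a9 cluster. The cNK-like cluster (990 cells, led by S1pr5) was at 8.10 CPM (4.53 to 13.4), and a cluster of dividing cells (547) at 47.5 (39.4 to 56.7).

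Anxa5 and Anxa7 had the same order over the Cox6a2, Gzmc and Scin-Epas1 clusters. Anxa5 was at 81.1 CPM (72.3 to 90.7), 140 (130 to 149) and 379 (357 to 401), the last as high as in the macrophage-like (376) and stromal-like (381) clusters. Anxa7 was at 111 CPM (101 to 123), 134 (125 to 144) and 165 (151 to 180), the last the highest of all 16 clusters. Anxa6 had the opposite order, at 343 (325 to 362), 201 (190 to 213) and 171 CPM (157 to 187), and was highest in the cNK-like cluster at 612 (577 to 649). For Anxa5, Anxa6 and Anxa7 these orders are those of the mean levels in sorted trNK-V, trNK-D and trNK-T, although no cluster was matched to a subset here. Anxa3 is left out, since its subset levels chose it. The last cluster was picked out by Scin and Epas1, which are among the genes most like Anxa3. The largest cluster (1259 cells, led by Cxcr6, with raised Tcf7, Tox, Gata3 and Cd27) was not among the 3. It held 5.90 CPM of Anxa3, 84.3 of Anxa5, 95.1 of Anxa7 and 351 of Anxa6.

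Of the other members, Anxa2 went from 610 CPM (585 to 635) and 750 (729 to 773) to 1227 (1188 to 1266) over the same clusters, its intervals apart, while in the sorted subsets its trNK-V and trNK-D libraries overlapped and no contrast was called. It was at 943 in the cNK-like and 165 in the B-like cluster. Anxa4 was at 40.8, 49.1 and 63.7 CPM in the same order and highest in the Ccl22 cluster (146). Anxa1 was at 165, 120 and 156 CPM, with no order, and was lowest in the T-like (25.8) and erythroid-like (32.9) clusters. Anxa11 was at 131, 103 and 110 CPM, with more UMIs than Anxa4 in each of these clusters, whereas its bulk RPKM was the lower of the pair in every subset library. The reason for this difference between the assays was not tested.

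**Figure D3:**
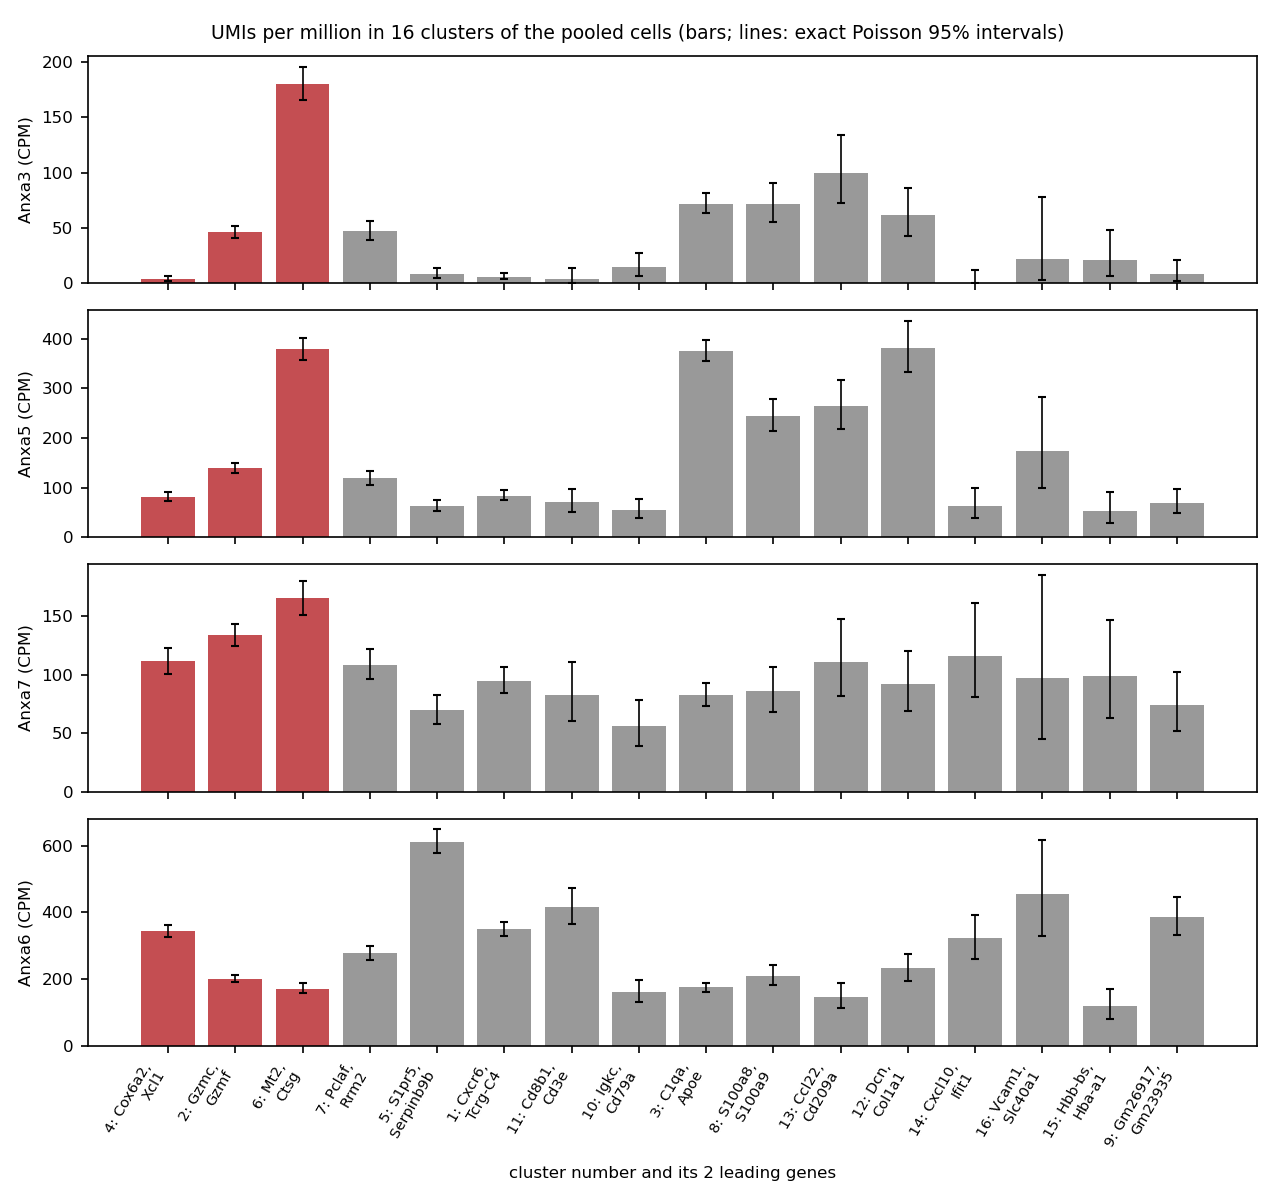
CPM in 16 clusters of the pooled single cells for selected annexins, bars from 0 with exact Poisson 95% intervals, with clusters labelled by number and leading genes. The red bars are the clusters led by Cox6a2, Gzmc and Mt2, in which Anxa3 goes from 3.69 through 46.3 to 180 CPM.

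With the upper gene limit lifted, the cluster with Scin and Epas1 grew to 1908 cells and held 151 CPM of Anxa3 (145 to 157) and 331 of Anxa5 (321 to 340), and remained highest of 15 clusters for Anxa3. At a coarser resolution it held 182 CPM, and a small cluster held more (337 CPM). When the limits were applied to UMIs in place of genes, no cluster was led by Scin or Epas1.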

How the data were processed

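Bulk RNA-Seq reads had been aligned to mm10 by the authors (HISAT2 2.1.0 and featureCounts are named in the submitters' processing notes), and the deposited files hold whole-number read counts per gene. The deposited single-cell files hold UMI counts per gene and cell, from the BD Rhapsody pipeline. RPKM were computed here from the counts, exon lengths and library totals over the 54353 shared genes.

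Genes above 10 RPKM in both libraries of any group of a series were tested with edgeR 4.0.16 (R 4.3.3, TMM, quasi-likelihood, 1 fit per series without a block, Benjamini-Hochberg), and SE is the log2 difference over the root of F. Scripts were tested on simulated data. Alternatives were DESeq2 1.42.0, limma 3.58.1 with voom, RLE size factors, no filter, a replicate block and leaving out each library. Cells were clustered with scanpy 1.11.5 (2000 variable genes, 20 components, resolution 0.8). Clusters were named from listed markers by thresholds set after the clusters were seen, at least 3 markers above 2-fold and 60% of a list. The 200 to 2500 limits were applied to detected genes, since the stated UMI limits kept 4338 cells.

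Named genes were the 8 annexins, the partners called in any comparison, the 5 genes most and 5 least like Anxa3 (1 of them is not reported here) and, by level, other annexins. Members, partners and marker lists were chosen with earlier results of these data known. Chromatin accessibility files of the series were not used here.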

Additional observations from a re-analysis of the deposited data

Results flagged for a closer look

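The effect of IL-21 on S100a6 differed between times of culture, by a test of the difference itself. S100a6 was lower with IL-21 at 6 h (663 and 713 RPKM against 1232 and 1449) and not at 72 h (1271 and 1395 against 1261 and 876), a difference of effects of 1.29 on the log2 scale (edgeR adjusted p = 0.0391) beside a median of 0.14 over all genes. It kept its direction under every alternative tried, and its adjusted p was above 0.05 without any one of 12 of the 16 libraries, at most 0.160, and with a replicate block. Lower mitochondrial shares and more detected genes in the 72 h IL-21 than in the 72 h control libraries moved with it, and their part was not tested.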

How the results depend on the processing

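Where annexins were called, their count stayed within 1.5 times in 51 repeats and moved in 13. These repeats include trNK-T against trNK-V, where nothing is read from a call. Where 0 were called it stayed 0 in 221 and moved in 3. Without the filter on low values, gd6.5 against virgin called 2 (Anxa3 and Anxa1), gd8.5 against virgin 1 (Anxa3) and trNK-D against trNK-V 1 (Anxa7), beside 3.89%, 2.13% and 1.8% of all genes, where the Anxa3 libraries of gd6.5 overlapped those of virgin. DESeq2 called 1 for IL-21 with inhibitor against control (Anxa7) and 2 for 72 h against 24 h (Anxa7 and Anxa2), beside 17.9% and 21.6% of all genes. Leaving out each library gave 0 to 1 for gd6.5 against virgin, 1 to 2 for trNK-T against trNK-V and 0 to 4 for 72 h against 24 h. Each of these leave-out fits had a group with a lone library. Their common coefficient of variation over all genes ran from 0.175 to 0.302 in the gestation series. It ran from 0.248 to 0.273 in the subsets and from 0.324 to 0.450 in the time course. The part of this spread in the calls of the leave-out fits was not tested. In the single cells, lifting the upper limit moved Anxa3 from 180 to 151 CPM and Anxa5 from 379 to 331 in the cluster with Scin and Epas1. Over the repeats for single genes, calls of the main fits, those of trNK-T against trNK-V included, were kept in 122 and lost in 71. Values not called stayed so in 143 and were called in 7, and 0 changed sign. Where no value shows it, the cause was not tested.

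Deviations of same-numbered libraries correlated from -0.29 to 0.10 in the gestation series, -0.51 to 0.60 in the inhibitor culture and -0.39 to 0.48 in the time course. In the subsets the correlations were all positive, from 0.010 to 0.40. With the number as a block, the common coefficient of variation of the subsets was 0.228 against 0.248 without. The main fits had no block, so a pairing of the subset libraries may have been left out of account. With the number as a replicate block, gd6.5 against virgin called 0 annexins (Anxa1 -1.43, edgeR adjusted p = 0.0629), and S100a10 and S100a11 at gd6.5 and S100a10 and S100a6 with IL-21 at 6 h also rose above the threshold (edgeR adjusted p from 0.0604 to 0.0699). The block also raised the common coefficient of variation over all genes, from 0.254 to 0.269 in the gestation series and from 0.414 to 0.418 in the time course. The part of this rise in the lost calls was not tested, and nothing is read from these losses.

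Depth set the floor for Anxa3 at 3 counts, and with 2 libraries a group a difference that missed the threshold is not shown to be absent.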

Other observations

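The annexins outside the list were scarce in the bulk libraries. Anxa8 was at most 4.98 RPKM, in a trNK-T library whose companion held 1.39, and Anxa9 at most 3.78. Anxa10 reached 0.0450 and Anxa13 0.361 RPKM. In the single cells, Anxa8 was highest in the cNK-like cluster at 8.10 CPM (exact Poisson 95% interval 4.53 to 13.4), Anxa9 in the stromal-like cluster at 15.9 CPM (7.27 to 30.2), and Anxa10 had no UMI in any of the 16 clusters.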
